A study of Mus musculus with 3 samples.

Results

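The nuclear genes of the mitochondrial respiratory chain and ATP synthase were compared between lower-limb skeletal muscle of control mice and of mFoxO1KO mice. The genes were chosen by symbol alone, with a pattern that takes the Nduf, Sdha to Sdhd, Uqcr, Cyc1, Cycs, Cox4 to Cox8 and Atp5 names. It matched 128 of the 39429 array probes that were not controls, and these probes stood for 95 of the 20886 genes with a symbol here. The files used here carry accessions and no gene symbols, so the pattern was applied to the symbols of RefSeq records that the accessions matched, which 27508 probes (69.8%) did. A probe without a match could not be chosen.

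The mFoxO1KO mice carried an inducible deletion of Foxo1, a forkhead transcription factor gene, specific to skeletal muscle. The controls are labelled as untreated controls, and the promoter that drove the deletion is not given in the sources used here. Both groups were male C57BL/6 mice, given 0.625 g/kg doxycycline in an AIN93G diet from week 8 to week 14. Each group had 3 biological replicates, and these were hybridised in pairs to 3 Agilent arrays of 2 colours, with control RNA in Cy3 and mFoxO1KO RNA in Cy5 on every array, so that dye and genotype cannot be told apart. Every ratio below is log2 of mFoxO1KO over control after loess normalisation, and errors after ± are the SD over the 3 arrays. A gene passed the test where the Benjamini-Hochberg adjusted p from limma, over all 17460 genes tested, was under 0.05.

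The respiratory chain passes electrons from NADH (complex I) and succinate (complex II) through ubiquinone to complex III, then by cytochrome c to complex IV, which reduces oxygen. Complexes I, III and IV pump protons across the inner mitochondrial membrane, and complex V, the ATP synthase, uses that gradient to make ATP. In skeletal muscle the chain supports sustained work and is richest in oxidative fibres, and several complex IV subunits exist there as a heart and muscle isoform beside a body-wide one. The subunits encoded in mitochondrial DNA were not analysed here.

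Several nuclear factors are known as regulators of these genes, and the sequences around the start sites of 5 genes on which the results turn are shown for that reason. Cox6a1 and Cox8a are body-wide isoforms of complex IV subunits, Cox8b and Cox7a1 are heart and muscle isoforms, and Uqcrh is the member with the smallest p. Each sequence holds 250 bases before the RefSeq start site and the first 30 after it, 5′ to 3′ on the gene's strand, from RefSeq on GRCm38.p6. Capitals mark every match to the motifs named after the sequences.
Cox6a1, chr5:115348929-115349208, minus strand: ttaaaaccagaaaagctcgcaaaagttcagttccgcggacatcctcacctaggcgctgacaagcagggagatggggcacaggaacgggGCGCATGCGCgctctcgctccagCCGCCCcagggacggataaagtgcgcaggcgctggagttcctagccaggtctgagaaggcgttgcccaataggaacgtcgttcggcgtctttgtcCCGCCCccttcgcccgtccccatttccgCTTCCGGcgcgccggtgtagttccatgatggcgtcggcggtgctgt
Cox8a, chr19:7217587-7217866, minus strand: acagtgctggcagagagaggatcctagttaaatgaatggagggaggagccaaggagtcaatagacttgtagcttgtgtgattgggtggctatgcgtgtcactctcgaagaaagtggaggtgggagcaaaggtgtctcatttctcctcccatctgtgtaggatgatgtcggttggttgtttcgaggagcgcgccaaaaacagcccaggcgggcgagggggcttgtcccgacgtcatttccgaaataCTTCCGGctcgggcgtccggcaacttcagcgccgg
Cox8b, chr7:140900417-140900696, minus strand: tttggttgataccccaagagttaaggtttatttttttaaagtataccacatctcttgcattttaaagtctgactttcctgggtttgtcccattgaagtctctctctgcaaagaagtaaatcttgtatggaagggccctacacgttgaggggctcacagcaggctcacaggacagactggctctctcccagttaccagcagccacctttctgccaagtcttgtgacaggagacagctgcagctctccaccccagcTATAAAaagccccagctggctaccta
Cox7a1, chr7:30183921-30184200, plus strand: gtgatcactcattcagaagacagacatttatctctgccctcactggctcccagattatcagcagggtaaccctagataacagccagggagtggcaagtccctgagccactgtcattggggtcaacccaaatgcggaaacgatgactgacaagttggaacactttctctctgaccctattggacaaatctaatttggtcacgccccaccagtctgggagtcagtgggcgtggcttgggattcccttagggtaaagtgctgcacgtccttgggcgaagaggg
Uqcrh, chr4:116075041-116075320, minus strand: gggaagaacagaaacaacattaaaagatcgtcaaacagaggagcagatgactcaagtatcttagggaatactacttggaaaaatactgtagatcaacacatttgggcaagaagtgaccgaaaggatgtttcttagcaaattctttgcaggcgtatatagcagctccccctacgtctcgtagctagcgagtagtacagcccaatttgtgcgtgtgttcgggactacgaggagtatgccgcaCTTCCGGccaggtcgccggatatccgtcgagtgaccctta

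The motifs were searched as exact letters on both strands in windows of 300 bases, which add 20 more bases after the start site, for the 77 of 95 genes with a RefSeq entry and for 27025 genes in all. A gene with more than 1 window was counted where any of them held the match. The NRF1 core GCATGCGC was found in 13 of the 77 genes (16.9%) against 3.05% of all genes. The ETS core CCGGAAG, which GABPA (NRF2) can bind, was in 19 (24.7%) against 9.93%, and the YY1 core AAGATGGCG in 8 (10.4%) against 1.64%. The ERR half-site AAGGTCA was in 8 (10.4%) against 5.38%, and the Sp1 core GGGCGG in 36 (46.8%) against 38.2%. The TATA box TATAAA was in 8 (10.4%) against 15.7%, and the forkhead core GTAAACA, the kind FoxO proteins can bind, in 2 (2.6%) against 4.05%. These 2 genes were Cox7a2, the body-wide counterpart of Cox7a1, and Ndufaf1, a complex I assembly factor. The matches began at bases -212 and -71 from the start site, and neither gene is among the sequences shown. The median base composition of the windows also differed, with 58.7% G and C in these genes and 52.7% in all genes. In the sequences shown, Cox6a1 has overlapping NRF1 matches on opposite strands, Sp1 matches and an ETS match, while Cox8a and Uqcrh each have an ETS match at the start site. Cox8b has a TATAAA match that begins at base 5 after the RefSeq start site, not before it, and Cox7a1 has none of these motifs. These matches are letters in a window and were not tested as binding sites.

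The share of probes well above background was 52 to 55.9% for control and 56.1 to 56.9% for mFoxO1KO RNA, and no spot was saturated. Foxo1 itself, read by its brightest probe, had ratios of -1.50, -2.42 and -2.27 and a mean of -2.06 ± 0.49 (n = 3), which is 23.9% of control (limma adjusted p = 0.0278). Its other probe had ratios of -0.70, -1.64 and -1.84, or 38.1% of control. Without replicate 2 the brightest probe had a mean of -1.89 and did not pass (limma adjusted p = 0.103). All 10 skeletal muscle markers were above background, with a median ratio of 0.091, and their summed log2 intensity was 19.55 to 19.62 in control and 19.64 to 19.75 in mFoxO1KO. Markers of fibre type varied between arrays: the 7 slow fibre markers had median ratios of -0.80, 0.17 and 0.005, with sums of 10.41 to 10.96 in control and 10.65 to 11 in mFoxO1KO. They were dim, with a median log2 intensity of 7.01 against 9.05 for all genes, and Myh7 was well above background in control on only 2 arrays. Atp2a2, at 9.43 or more in control, had ratios of 0.24, 0.38 and 0.23. Of the 7 means 3 were above 0 and 4 below. Myh2, the myosin of a fast oxidative fibre type, had -1.69, -0.34 and 1.36. The part of fibre type in the ratios below was not tested. Adipocyte markers also differed by array. Of 9, the 8 tested had median ratios of 2.87, 0.22 and 1.84 on arrays 1, 2 and 3, and 0 passed the test, although all 8 means were above 0 and 7 had an unadjusted p under 0.05 in limma. Their summed log2 intensity ran from 15.32 to 16.53 in control and from 16.67 to 17.66 in mFoxO1KO, and the ninth, Lep, was not tested. Of 6 brown adipocyte markers 4 were tested (not Ucp1 and Elovl3) and 0 passed, with 2 means above 0, 2 below and a median of 0.061. Cidea was at 4.035, 1.33 and 4.004 (3.12 ± 1.55, limma adjusted p = 0.0632), while Dio2 had a mean of 0.19, Prdm16 -0.063 and Zic1 -0.25.

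Of the 95 genes 92 were tested, and all 92 were well above background in both channels on all 3 arrays. Ndufa10, a complex I accessory subunit, was left out because its only probe was marked as an outlier on array 1; its ratios on the other arrays were 0.27 and 0.36. Cox8c and Cox7b2, testis forms of complex IV subunits, were not well above background on any array. The chain genes were among the most strongly read on the arrays: 76 of 92 (82.6%) had a mean log2 intensity over 13.12, the 90th percentile of the genes tested.

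None of the 92 genes passed the test, against 2.75% of all genes tested (481 of 17460, with 359 or 2.06% higher and 122 or 0.699% lower). At an unadjusted p under 0.05 there were 24 of 92 (26.1%), 20 with higher and 4 with lower values in mFoxO1KO, against 26.8% of all genes (15.3% higher and 11.5% lower). The ratio had 1 sign on all 3 arrays for 51 genes (55.4%) against 52.4% of all genes, above 0 for 36 (39.1% against 27.9%) and below 0 for 15 (16.3% against 24.5%). The mean ratio was above 0 for 54 genes (58.7%) against 51.8% of all genes. The median ratio of the 92 genes was 0.037, with medians of 0.035, 0.077 and -0.005 on the 3 arrays, beside 0.007 for all genes. By level in each channel, the 3 mFoxO1KO and 3 control samples did not overlap for 31 genes (33.7%), 22 higher and 9 lower, against 25.8% of all genes (14% higher and 11.8% lower).

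The differences were small in either direction. Mean ratios ran from -0.27 (Ndufb3) to 0.40 (Cyc1), and 6 genes (6.52%) lay beyond 0.3 in size, all above 0, against 13.1% of all genes. The 95% interval of the mean from limma lay within a 2-fold change for all 92 genes and within 1.5-fold for 90. The lowest bound was -0.44 (0.739-fold) and the highest 0.74 (1.67-fold). The median SD over arrays was 0.080, against 0.113 for all genes.

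**Figure D1:**
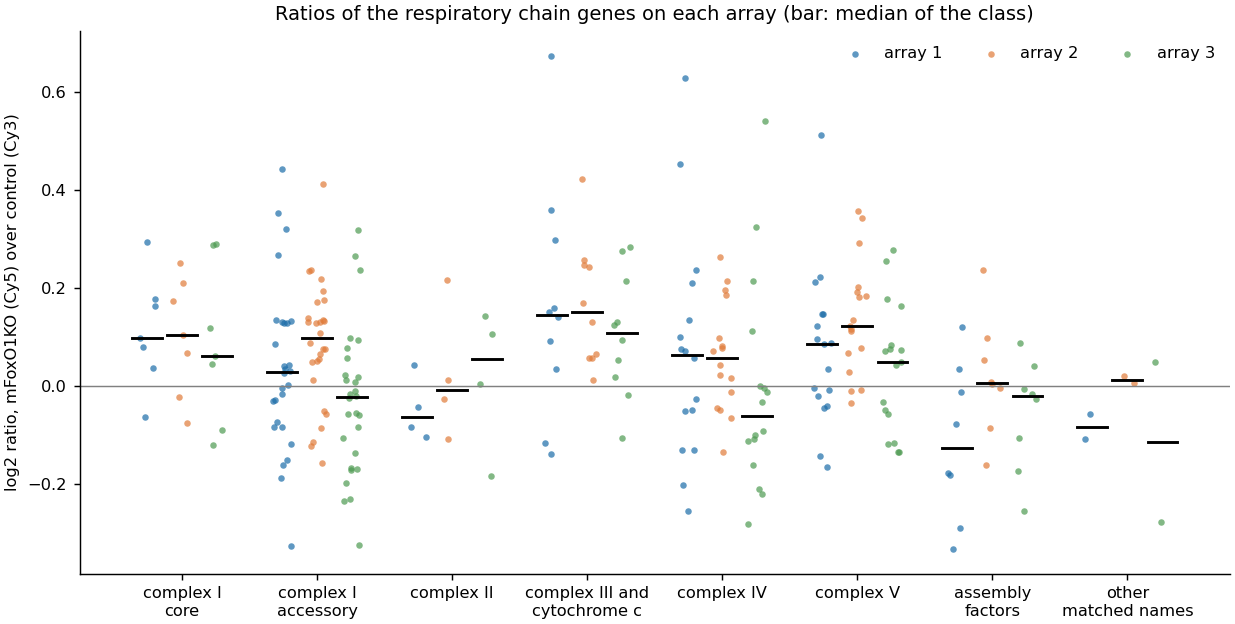
Log2 ratio of mFoxO1KO over control (vertical axis) for each of the 92 genes tested, by class and array, where each point is a gene and each bar the class median on that array. Complex III and cytochrome c has a median above 0 on every array (0.146, 0.151 and 0.109), and the accessory subunits of complex I spread to both sides of 0.

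Complex I, the NADH dehydrogenase, is made of a catalytic core and many accessory subunits that stabilise it. The 7 core genes tested had a median ratio of 0.097, 5 above 0 and 2 below. Ndufv1, which binds NADH, had ratios of 0.18, 0.21 and 0.29 (0.23 ± 0.058, adjusted p = 0.10 from limma). Its log2 intensities were 15.31, 15.20 and 15.28 in control and 15.49, 15.41 and 15.57 in mFoxO1KO, without overlap. Ndufs8, an iron-sulfur subunit, had a mean of 0.13 ± 0.040. Ndufs1, Ndufs3, Ndufs7 and Ndufv2 had means from -0.069 to 0.097.

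The 28 accessory genes tested were divided evenly, 14 above 0 and 14 below, with a median of 0.011. Ndufab1, the mitochondrial acyl carrier protein, had ratios of 0.35, 0.41 and 0.24 (0.33 ± 0.090, limma adjusted p = 0.0653). Its log2 intensities were 8.43, 8.18 and 8.51 in control and 8.79, 8.59 and 8.75 in mFoxO1KO, without overlap, on a probe much dimmer than most of the chain. Ndufs4, an accessory subunit needed for a stable complex, had ratios of 0.44, 0.22 and 0.32 (0.33 ± 0.11, limma adjusted p = 0.0748). In the opposite direction, Ndufb3 of the membrane arm had ratios of -0.33, -0.16 and -0.32 (-0.27 ± 0.097, limma adjusted p = 0.0913), with control levels of 14.03, 13.73 and 13.79 above the mFoxO1KO levels of 13.70, 13.57 and 13.47. So the accessory genes nearest to the threshold lay on both sides of 0.

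Complex II, succinate dehydrogenase, links the citric acid cycle to the chain, and all 4 of its genes are nuclear. Their median ratio was -0.009, and 0 reached an unadjusted p under 0.05. Sdhb, the iron-sulfur subunit, had ratios of 0.044, 0.22 and 0.11. Sdhd, a membrane anchor, had -0.042, -0.11 and -0.18. Sdha, the flavoprotein, had -0.10, 0.012 and 0.14, and the anchor Sdhc -0.083, -0.026 and 0.0041. A second, dimmer Sdhc probe gave 0.23, 0.12 and 0.18 (0.18 ± 0.055), opposite in sign to the brightest in its mean, so the direction of Sdhc depended on the probe. With probe means the complex II median was 0.043, and with every probe 0.060. The Sdhb probe read 13.55 in control and 13.66 in mFoxO1KO on array 3, against 14.83 to 15.04 on the other arrays, a drop shared by both channels that leaves its ratio at 0.11.

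Complex III, the cytochrome bc1 complex, and cytochrome c had the highest median of any class, 0.118, although the complex I core was higher with replicate 2 left out (0.108), and with probe means or every probe (0.097). There were 8 of 10 complex III genes above 0 and 5 at an unadjusted p under 0.05, all higher, against 15.3% of all genes higher at that p. Uqcrh, the hinge protein that helps cytochrome c1 meet cytochrome c, had the smallest p of all 92 genes. Its log2 intensities were 15.59, 15.44 and 15.56 in control and 15.95, 15.86 and 15.84 in mFoxO1KO. The groups did not overlap, and the ratios of 0.36, 0.42 and 0.28 gave 0.36 ± 0.070, just short of the threshold (limma adjusted p = 0.0558). Its second probe had a mean of 0.32 ± 0.085. Cyc1, the cytochrome c1 subunit, had the highest mean of the members, 0.40 ± 0.24, with ratios of 0.67, 0.25 and 0.27 (limma adjusted p = 0.10). Array 1 was the high one, and without it the mean was 0.26. Uqcrc1, a core protein, had ratios of 0.30, 0.17 and 0.22 (0.23 ± 0.064, limma adjusted p = 0.10), and its channel levels overlapped. Uqcrq and Uqcr10, small membrane subunits, had means of 0.18 and 0.16. The Rieske iron-sulfur protein Uqcrfs1 had -0.002 and Uqcrb -0.077. Cycs, cytochrome c, had a mean of 0.076 on its brightest probe and -0.14 on another, so its direction depended on the probe.

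**Figure D2:**
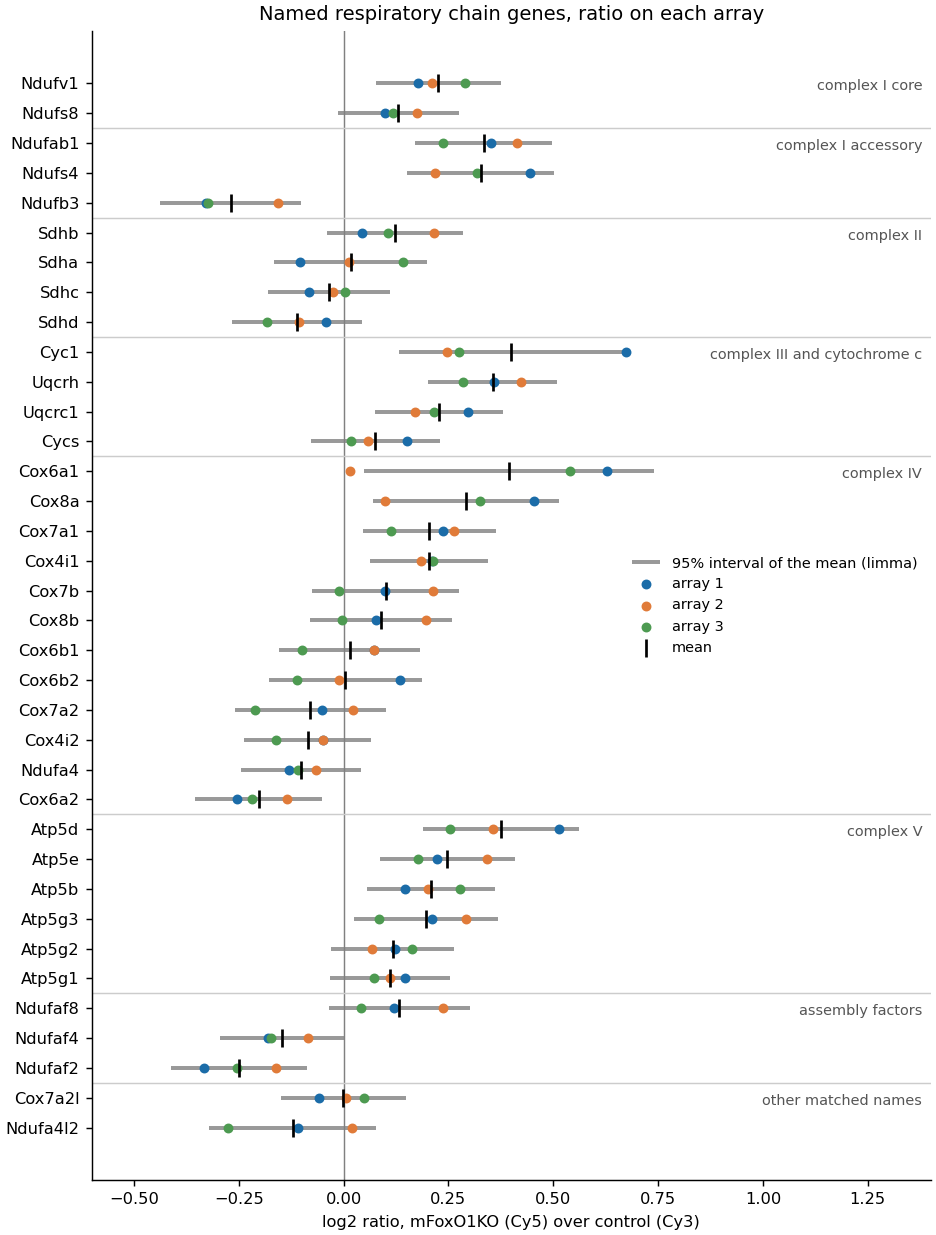
Log2 ratio of mFoxO1KO over control on each array (points) for 36 of the genes named by rule, with the mean (black tick) and its 95% interval from limma (grey bar), by class. Uqcrh and Cox4i1 have tight points above 0, Cyc1 and Cox6a1 are spread widely, and Ndufb3, Ndufaf2 and Cox6a2 lie below 0 on all 3 arrays.

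Complex IV, cytochrome c oxidase, had a median ratio of 0.010 over 16 genes, 10 above 0 and 6 below. Cox4i1, the body-wide form of the regulatory subunit IV, had one of the smallest spreads, with ratios of 0.21, 0.19 and 0.21 (0.20 ± 0.016, limma adjusted p = 0.10). Its log2 intensities, 16.01, 15.95 and 15.96 in control and 16.22, 16.13 and 16.18 in mFoxO1KO, did not overlap. Its counterpart Cox4i2, known as a form of lung and of low oxygen, was dim and had a mean of -0.086 ± 0.064. The other named subunits Cox7b, Cox6b1 and the testis form Cox6b2 had means of 0.10, 0.015 and 0.004. Ndufa4, first assigned to complex I and later found with complex IV, had -0.10, and its paralog Ndufa4l2 -0.12. Cox7a2l, which joins complexes III and IV in supercomplexes, had -0.001, while its dimmest probe gave 0.24 ± 0.21.

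The isoform pairs of complex IV did not shift in one direction. For subunit VIa the body-wide Cox6a1 had ratios of 0.63, 0.016 and 0.54 (0.40 ± 0.33, limma adjusted p = 0.15). The heart and muscle form Cox6a2 had -0.25, -0.13 and -0.22 (-0.20 ± 0.062, limma adjusted p = 0.12). The ratio of Cox6a1 was above that of Cox6a2 on all 3 arrays, by 0.88, 0.15 and 0.76 (mean 0.60 ± 0.39). For subunit VIIa the order was the other way, and the difference was steadier between arrays. The body-wide Cox7a2 had -0.050, 0.022 and -0.21, the heart and muscle form Cox7a1 0.24, 0.26 and 0.11 (0.20 ± 0.080, limma adjusted p = 0.13), and their difference was -0.29, -0.24 and -0.32 (mean -0.28 ± 0.041). Cox7a1 had a mean log2 intensity of 16.20 and Cox7a2 of 14.39. The median ratio of all genes after loess was 0.178 at an intensity of 16.25 and -0.046 at 14.25. The VIIa difference was -0.171 with a loess span of 0.1 and -0.142 with the scanner software's processed signals. The part of intensity in this difference was not tested. For subunit VIII the body-wide Cox8a had ratios of 0.45, 0.098 and 0.33 (0.29 ± 0.18, limma adjusted p = 0.12) and the heart and muscle form Cox8b 0.077, 0.20 and -0.0043, a difference of 0.38, -0.099 and 0.33 whose sign differed between arrays. The second Cox8a probe gave 0.54, 0.068 and 0.38, the same pattern over arrays. Settings that changed only the filter, the variance or the fit left these differences as they were. Under the settings that changed the ratios, the sign of each mean difference was kept. The ranges were 0.455 to 0.822 for subunit VIa, -0.363 to -0.142 for VIIa and 0.087 to 0.459 for VIII.

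The adipocyte markers had the same order over arrays as Cox6a1 and Cox8a, high on array 1, then array 3, then array 2. Among the 92 genes 6 had that order (6.52%), among them Cox6a1, Cox8a, Cyc1, Ndufs4 and Uqcrc1, against 18.7% of all genes. The most frequent order was array 2, array 1, array 3, in 39 genes (42.4%), among them Cox7a2, against 11.9% of all genes. The order array 2, array 3, array 1 was in 25 genes (27.2%) against 15.1% of all genes. So 64 of the 92 were highest on array 2, where their median was also highest (0.077, against 0.035 and -0.005 on arrays 1 and 3). Genes read on the same 3 arrays are not independent, so these counts are a description only. The part of fat in the ratios was not tested. In bulk muscle, fewer cells of a type and less RNA per cell cannot be told apart.

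**Figure D3:**
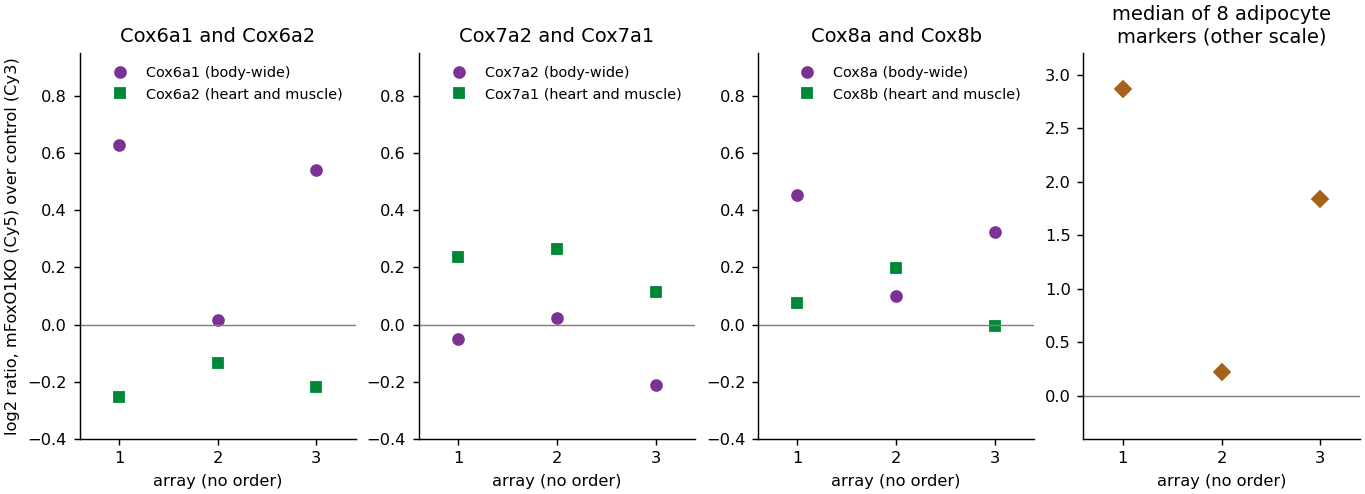
Log2 ratio of mFoxO1KO over control on each array for the body-wide (circles) and heart and muscle (squares) forms of complex IV subunits VIa, VIIa and VIII, beside the median of 8 adipocyte markers on its own scale (diamonds). Cox6a1 and Cox8a are low on array 2 (0.016 and 0.098), where the adipocyte median is also lowest (0.22). The other body-wide form, Cox7a2, is highest on array 2 (0.022, against -0.050 and -0.21 on arrays 1 and 3). Cox7a1 lies above Cox7a2 on every array.

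Complex V, the ATP synthase, had a median ratio of 0.075, with 13 of 17 genes above 0. At an unadjusted p under 0.05 there were 4, all higher, against 15.3% of all genes higher at that p. Atp5d, the delta subunit of the catalytic head's central stalk, had ratios of 0.51, 0.36 and 0.25 (0.37 ± 0.13, limma adjusted p = 0.0664). Its log2 intensities were 13.79, 14.00 and 14.10 in control and 14.30, 14.36 and 14.35 in mFoxO1KO, without overlap, and the control samples varied more than the mFoxO1KO samples. The epsilon subunit Atp5e of the same stalk had 0.22, 0.34 and 0.18 (0.25 ± 0.085, limma adjusted p = 0.0981). Atp5b, the catalytic beta subunit, had a mean of 0.21 ± 0.066, while the alpha subunit Atp5a1 had 0.036 ± 0.066. Over 20 alternative settings Atp5e ran from 0.038 to 0.636 and Atp5b from 0.06 to 0.616, so their size depended on the processing. The 3 genes of the membrane ring's c subunit, Atp5g1, Atp5g2 and Atp5g3, which differ in their targeting sequences, had means of 0.11, 0.12 and 0.20. A second probe of Atp5g2 gave -0.24, -0.17 and -0.15, opposite to the first on every array.

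The 8 assembly factors, all of complex I, had 2 genes above 0 and 6 below, and a median of -0.047. Ndufaf2, a chaperone of late complex I assembly, had ratios of -0.33, -0.16 and -0.26 (-0.25 ± 0.086, limma adjusted p = 0.0974). Its levels of 10.75, 10.51 and 10.72 in control and 10.42, 10.35 and 10.46 in mFoxO1KO did not overlap. Ndufaf4 had a mean of -0.15 ± 0.054 and Ndufaf8 of 0.13 ± 0.098. These genes were dimmer than the subunits, with a median log2 intensity of 10.70 against 15.16 for the 82 subunits and cytochrome c.

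Probes of one gene were a further measure of spread. Over the 25 genes with more than 1 tested probe, the median range between probe means was 0.114, and in 10 genes the probes differed in sign. The largest range, 0.391, was in Ndufv3, a complex I accessory subunit. Its bright probe gave -0.028, 0.11 and -0.083, and its dim probe gave 0.50, 0.22 and 0.45. These ranges are of single genes and do not give the error of a class median.

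The size of the ratios depended on how the dyes were balanced. With each array only centred on its median, the 92 genes had a median of 0.368 and 91 were above 0. In limma 16 passed the test (17.4% against 6.9% of all genes), all higher. But the other 1670 genes above the 90th percentile of intensity had a median of 0.30 and all genes 0.156. After loess the medians were 0.037, -0.008 and 0.007. Some curvature remained after loess at the top of the range, where the median of all genes was 0.088 at a log2 intensity of 15.75 (116 genes), 0.178 at 16.25 (78 genes) and 0.284 at 16.75 (54 genes). Uqcrh, Cox4i1, Cox7a1, Atp5b, Atp5e, Atp5g1 and Atp5g2 lie in that range. With a loess span of 0.1, chosen after seeing the data, Cox4i1 was at 0.093, Cox7a1 at 0.086 and Uqcrh at 0.27, while Cyc1 (0.39), Cox6a1 (0.40) and Atp5d (0.38), which are less bright, moved little. Cox6a2, the brightest of all at 16.88, was at -0.20 with the reported span, -0.36 with the narrow one and 0.22 with median centring.

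Some directions depended on the scaling. With the scanner software's processed signals and loess, Cox4i1 was at -0.016, Atp5g1 at -0.013 and Atp5g2 at -0.058, and the deposited log ratio gave -0.012, -0.010 and -0.055. The class medians of complex V (-0.013), complex IV (-0.039) and the complex I accessory genes (-0.057) were then also below 0. The median of the assembly factors was above 0 with median centring only (0.166), as was the mean of Ndufb3 (0.015). Complex III kept a median above 0 under every setting, from 0.051 to 0.473, and the complex I core from 0.001 to 0.424. Settings that changed only the filter, the variance or the fit left both medians as reported.

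**Figure D4:**
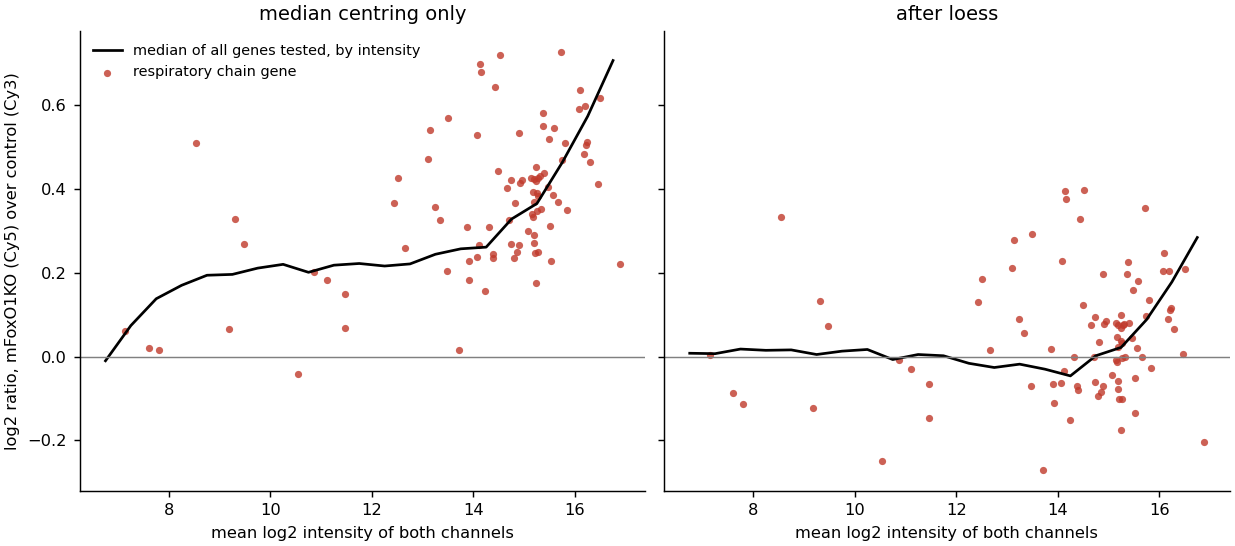
Mean log2 ratio of mFoxO1KO over control (vertical axis) against mean log2 intensity of both channels for the 92 genes (points), with median centring only (left) and after loess (right). The line is the median of all genes tested in intensity bins of at least 20 genes, and the genes follow it upward on the left, where their median is 0.368, and scatter near 0 on the right, where it is 0.037.

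**Figure D5:**
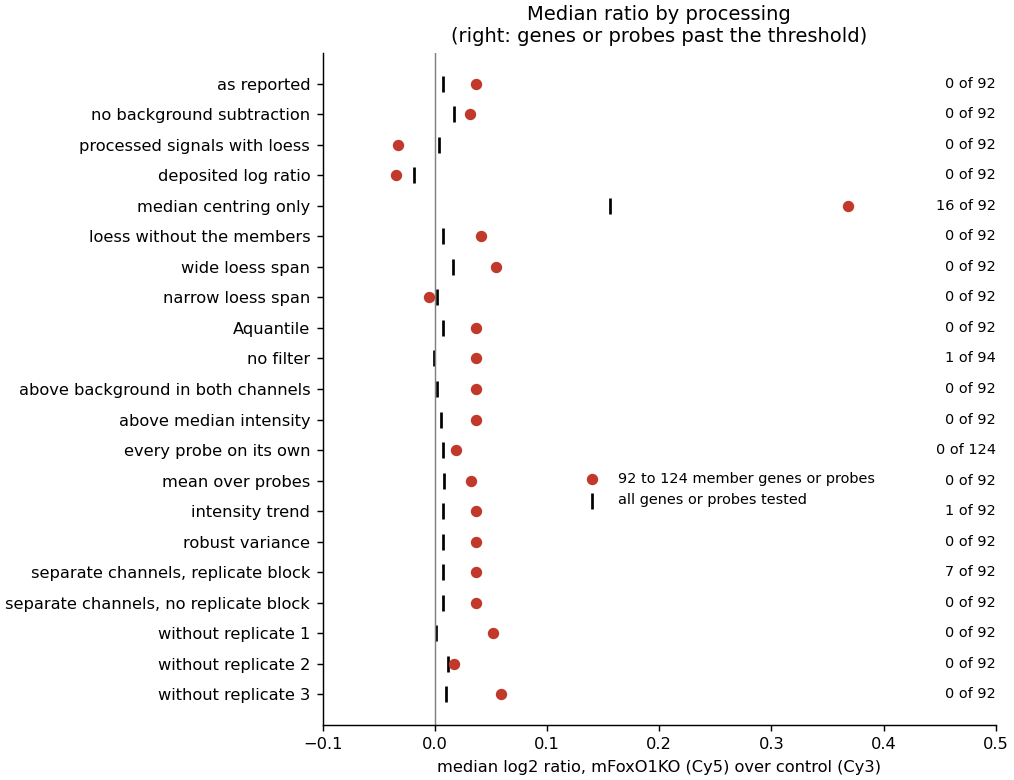
Median log2 ratio of mFoxO1KO over control (horizontal axis) under each processing setting, for the respiratory chain genes or their probes (circles) and for all genes tested (ticks), with the number past the threshold at the right. The median runs from -0.035 to 0.059 except with median centring only (0.368).

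The other genes of the pathway were read from lists. Of 39 assembly factors outside the symbol pattern, 0 passed the test (21 above 0 and 18 below, median 0.014). At an unadjusted p under 0.05 in limma there were 9 of 39, against 26.8% of all genes. Coa5, a complex IV assembly factor, had a mean of 0.36 ± 0.074 (limma adjusted p = 0.0562), and Tmem126a, a complex I assembly factor, -0.33 ± 0.10 (limma adjusted p = 0.0706). Of 12 coenzyme Q synthesis genes 0 passed (median 0.102), with 3 at an unadjusted p under 0.05, against 26.8% of all genes.

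Slc25a4 and Slc25a5, which encode carriers that exchange ATP made by complex V for cytosolic ADP, passed the test with higher values in mFoxO1KO muscle. Slc25a4, the heart and muscle form, had ratios of 0.47, 0.41 and 0.43 (0.44 ± 0.029, limma adjusted p = 0.0423). Slc25a5 had 0.33, 0.52 and 0.45 (0.43 ± 0.097, limma adjusted p = 0.049). They were 2 of the 7 carrier and complex V genes outside the pattern, whose median was -0.035. The phosphate carrier Slc25a3 had a mean of -0.035 ± 0.092, and the outer membrane channel Vdac1 -0.33 ± 0.20 (limma adjusted p = 0.11). Slc25a4 passed under 13 of 20 alternatives and Slc25a5 under 10. Slc25a4 is at the top of the intensity range, with a lowest control level of 16.84. At a log2 intensity of 16.75 the median of all genes after loess was 0.284 (54 genes). Slc25a4 was at 0.26 with the narrow loess span and 0.21 with processed signals (limma adjusted p = 0.0782 and 0.166). It did not pass with any replicate left out (limma adjusted p from 0.0592 to 0.174). Slc25a5 did not pass without replicate 2 or 3 (limma adjusted p = 0.205 and 0.113).

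Among 17 regulators of mitochondrial biogenesis 1 passed. Ppargc1a, the coactivator PGC-1alpha, rose, with ratios of 1.08, 1.95 and 1.01 (1.35 ± 0.52, limma adjusted p = 0.049), but passed under 8 of 20 alternatives and under none that left out a replicate (limma adjusted p from 0.0557 to 0.0636). The factors that act with it on these promoters did not pass. Nrf1 had a mean of 0.081 ± 0.017, Gabpa -0.15 ± 0.18, Esrra -0.008 ± 0.12 and Yy1 -0.45 ± 0.18 (limma adjusted p = 0.066). The other ERR genes were higher, with Esrrb at 0.43 ± 0.11 (limma adjusted p = 0.0504) and Esrrg at 0.14 ± 0.094. Tfam, which maintains and transcribes mitochondrial DNA, had -0.22 ± 0.021 (limma adjusted p = 0.0981). Of 9 genes for uncoupling and alternative electron entry 0 passed, with 3 at an unadjusted p under 0.05 in limma, against 26.8% of all genes. Ucp3, the muscle uncoupling protein, had 0.51 ± 0.15 (limma adjusted p = 0.0505).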

How the data were processed

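RNA of 3 control and 3 mFoxO1KO muscles was measured on 3 arrays of 2 colours on 1 slide. The deposited files are scanner output. Per the file headers they hold median intensity of spot and local background, processed intensity and a log10 ratio, made by Feature Extraction 11.5.1.1, while the submitters' processing notes name 9.3.2.1. Background was corrected with normexp (offset 50) on the median intensities. Dyes were balanced by loess with span 0.3 and no weight on controls, using limma 3.58.1 and R 4.3.3. Outlier spots were left out, spots of a probe averaged, and probes kept that were well above background in 1 channel on all arrays and had a value on each. The brightest probe stood for a gene. Ratios were tested with an intercept-only limma fit (two-sided), each array pairing 1 control with 1 mFoxO1KO sample, and checked on simulated data with 200 changed genes. Channel levels are after Aquantile and are not comparable between probes.

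Members, lists and the 37 named members (per class, those with the smallest p and largest mean either way, plus isoform sets, Cycs and Sdha to Sdhd) were chosen with earlier results of these data known. Outside the members, the rule names Foxo1 and pathway genes past the threshold. Of the 37, 1 is not reported here. Genes named outside that rule were chosen after their values were seen. Precision is set by 3 arrays and by signal over background, with median Cy3 intensity of 90.5 to 97 against 35.5 to 38 and median Cy5 of 99 to 102 against 50.5 to 52. Coordinates are GRCm38.p6, from RefSeq, while the headers name an older build.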

Additional observations from a re-analysis of the deposited data

How the results depend on the processing

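Of the respiratory chain genes, 16 passed with median centring only, 7 with separate channels and the array as replicate block (Atp5d, Atp5e, Cox4i1, Cyc1, Ndufab1, Ndufs4 and Uqcrh), 1 (Uqcrh) with an intensity trend, 1 (Uqcrh) with no filter, and 0 under the other settings, including without each replicate (0 to 0). The share that passed with median centring was 17.4%, against 6.9% of all genes. With the replicate block it was 7.61% against 9.46%, with the intensity trend 1.09% against 3.85%, and with no filter 1.06% against 2.31%. The median of the respiratory chain genes was -0.033 with processed signals and loess and -0.035 with the deposited log ratio. It was -0.005 with the narrow span (added after seeing the data), 0.368 with median centring, and 0.017 to 0.059 without each replicate. Complex III and the complex I core kept medians above 0 under those settings. Over all genes the count of 481 became 217 with processed signals and loess, 200 with the deposited log ratio, 1205 with median centring (1154 higher), 295 with the narrow span, 747 with no filter, 55 with both channels above background, 216 above the median intensity, 1652 with the replicate block (1043 higher and 609 lower), 216 with no replicate block, and 50 to 434 without each replicate (50 without replicate 2, 154 without replicate 3). Foxo1 ranged from -2.35 to -1.89 without each replicate and lost its call without replicate 2 (-1.89, limma adjusted p = 0.103, against 8.5e-05 to 0.103 over all alternatives). The cause of these changes was not tested. With 3 arrays the median half-width of the members' unadjusted 95% intervals was 0.159.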
